A study of Mus musculus with 4 samples.

Results

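Cyp11a1 and the genes around it in steroid synthesis and in the glucocorticoid response were followed in T cells of KO mice and of wild-type (WT) mice that had been kept under Treg-inducing conditions. The 10 listed genes are Cyp11a1, Fdx1, Fdxr, Star and Tspo for the making of the first steroid, Hsd11b1 for the activation of glucocorticoid, and Nr3c1, Tsc22d3, Fkbp5 and Fkbp4 for its sensing. A member was measured by each probe set (several short probes read together as 1 signal) whose platform annotation names that gene alone. This gave 27 probe sets for 9 of the 10 genes, out of 45101 probe sets on the array, and Fdxr had no such probe set here. The genes were chosen by name with the KO against WT differences in linear MAS5 signal on these 4 arrays already known, so those differences are given as a description. Calls by the fit across all probe sets are counted once for the members, beside the same share of the array, and support nothing about single members.

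The 4 arrays hold 2 samples of KO cells and 2 samples of WT cells. All are naive T cells taken fresh from mouse spleen and stimulated for 3 days to induce regulatory T cells (Treg cells), a CD4 lineage that restrains immune responses. The labels name neither the gene removed in the KO mice nor strain, age or sex, so the targeted gene is not reported and what limits the KO as a model is not known here. Source names number the mice of each sample but do not say whether cultures were separate, so the spread behind every p-value here may be technical. The deposited values are linear MAS5 signals scaled to a trimmed mean of 500.0 on every array, with medians from 56.5 to 60.5 on the KO arrays and from 58.6 to 62.6 on the WT arrays. Over the 27022 probe sets tested, log2 signals correlated at r = 0.977 between the KO arrays and at 0.979 between the WT arrays, and at 0.933 to 0.941 across genotypes (taken across probe sets, not across replicates). Of 9 T cell markers measured all passed the filter on dim signals, and their summed signal was 72146 and 70186 on the KO arrays and 54663 and 54294 on the WT arrays. By gene, 3 rose in limma (Cd3d, Cd3g and Cd3e), 1 fell (Cd6) and 5 did not pass, with a median log2 difference of -0.11. Foxp3, the defining Treg factor, was at 947 and 1101 on the KO arrays and at 2177 and 2033 on the WT arrays. Of 5 Treg markers tested in limma 2 fell (Foxp3 and Ikzf2) and 3 rose (Tnfrsf18, Ctla4 and Il2ra), with a median log2 difference of 0.50. Precision is limited by the number of arrays, and in such bulk samples fewer cells of a type and less RNA per cell cannot be told apart.

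Steroid synthesis starts in the mitochondrion, where Cyp11a1, the side-chain cleavage enzyme, turns cholesterol into pregnenolone with electrons that Fdxr passes to Fdx1 and Fdx1 to the enzyme. Adrenal and gonadal cells are the classical site, and mouse T helper 2 cells have also been described to express Cyp11a1 and to make pregnenolone. Glucocorticoids act through the receptor encoded by Nr3c1, which waits in the cytoplasm in an Hsp90 complex and, once bound, moves to the nucleus and switches on genes such as Tsc22d3 and Fkbp5.

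Of the 27 probe sets of members, 23 passed the filter, which removed the dimmest 40% of the array by mean log2 signal. The other 4 were 1 each of Cyp11a1, Star, Nr3c1 and Fkbp5. Among all 27, both KO arrays lay above both WT arrays at 8, below them at 12, and the genotypes overlapped at 7. Over the 23 tested, the groups did not overlap at 19, where the same holds for 60.2% of all tested probe sets (25.1% with KO higher, 35.1% with KO lower). An adjusted p under 0.05 in limma was reached by 11 of the 23, 7 with KO higher and 4 with KO lower, against 17.1% of all tested probe sets (7.89% with KO higher, 9.17% with KO lower). Since the choice of members used this contrast, nothing is read from these counts, which fell to 1 of 23 in a fit with no intensity trend of the variance. The median difference over the 23 was -0.14 on the log2(signal + 16) scale, and that over all tested probe sets was -0.079. The plot of signals by genotype shows all 23, and the plot of differences sets them beside the bulk of the array.

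**Figure D1:**
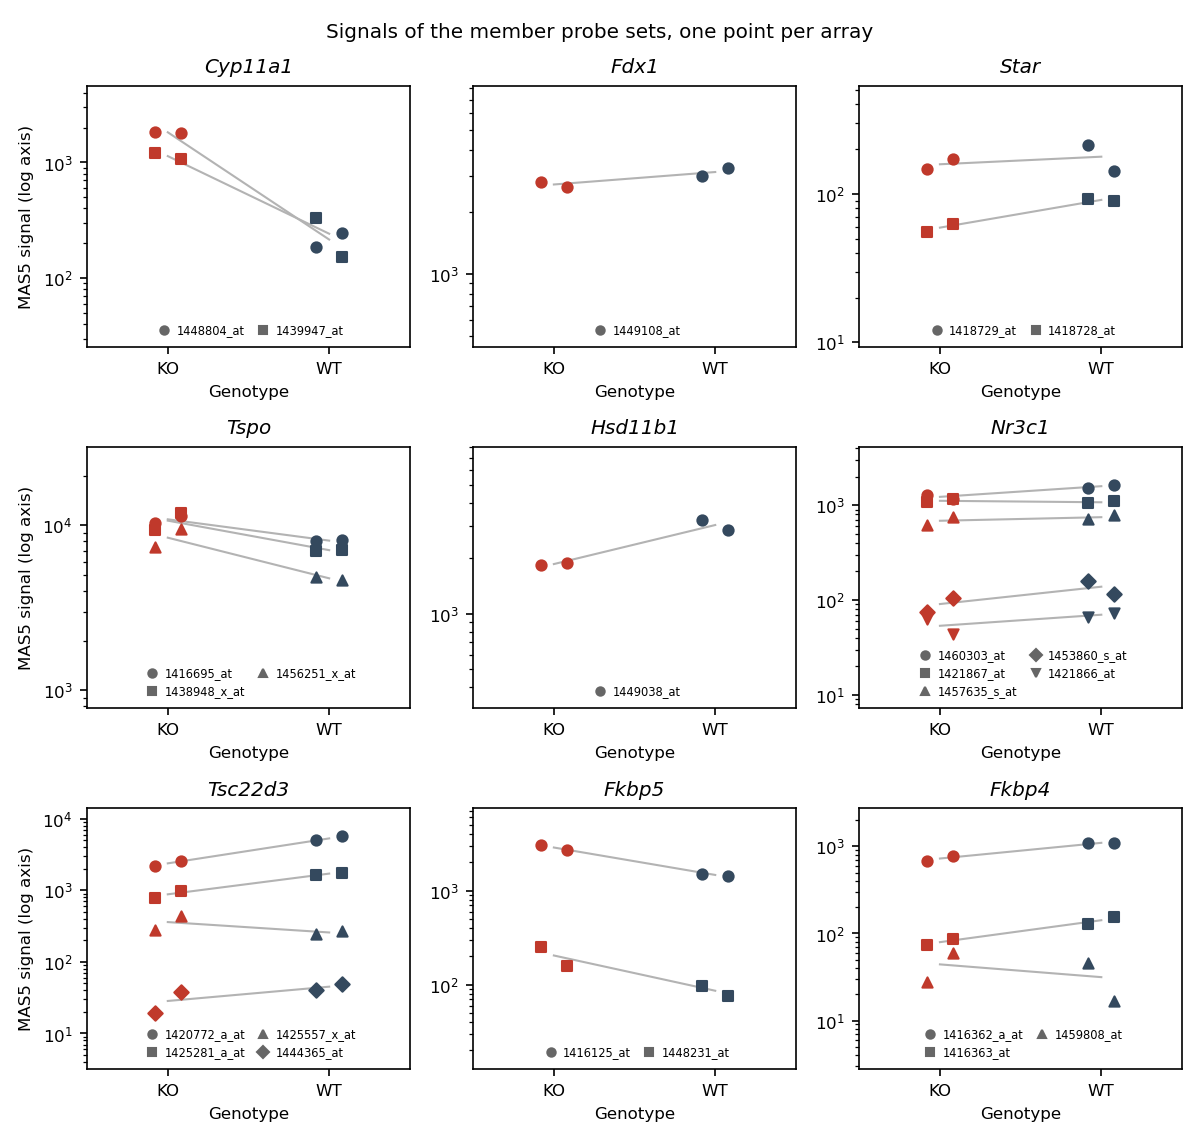
MAS5 signal (log axis) of each tested member probe set, with 1 panel per gene, KO arrays in red on the left and WT arrays in dark blue on the right, 1 marker shape per probe set and a grey line between group means. Both Cyp11a1 probe sets sit at 1074 to 1833 on the KO arrays and at 152 to 332 on the WT arrays, Fkbp5 is higher and Hsd11b1 lower in KO cells, and 3 of the 4 Tsc22d3 probe sets are lower in KO cells.

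Cyp11a1 was the member with the widest gap between the genotypes, and it was bright in KO cells on 2 probe sets. Probe set 1448804_at read 1833 and 1814 on the KO arrays, against 184 and 247 on the WT arrays. Both KO arrays were far above both WT arrays, and the KO arrays differed from each other by only 0.01 on the log2 scale. The log2(signal + 16) difference of KO minus WT was 3.00 ± 0.17 (SE from the limma fit), a fold of 8.01, and it lay between 2.76 and 3.20 under the alternatives tried. Probe set 1439947_at read 1196 and 1074 on the KO arrays, against 332 and 152 on the WT arrays, a difference of 2.25 ± 0.30. Here the WT arrays were 1.05 apart on the log2 scale, so the difference was 2.78 without WT array 1 and 1.72 without WT array 2. Probe set 1457604_x_at, of a kind whose probes may also bind other transcripts, was too dim to test, with 16.6 and 5.45 on the KO arrays against 7.89 and 4.71 on the WT arrays. Its arrays overlapped. Among the 12547 genes tested with 1 probe set each, the brightest, Cyp11a1 ranked 126th from the top by difference.

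RefSeq lists 2 start sites for Cyp11a1 on mouse chromosome 9 (assembly GRCm38.p6, plus strand), and the windows around them, each of 250 bases before and 50 after the start, are shown because this gene differs most. The upstream window covers chr9:57997774-57998073 and the downstream one chr9:58014702-58015001. Capitals mark AGGTCA, the half-site read by nuclear receptors that include the steroidogenic factor Nr5a1.
Cyp11a1 upstream start: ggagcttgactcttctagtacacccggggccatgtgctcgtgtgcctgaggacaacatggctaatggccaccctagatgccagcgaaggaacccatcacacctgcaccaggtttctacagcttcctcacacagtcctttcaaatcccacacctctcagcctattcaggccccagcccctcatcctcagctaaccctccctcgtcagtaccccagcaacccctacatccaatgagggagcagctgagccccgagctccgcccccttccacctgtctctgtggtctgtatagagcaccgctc
Cyp11a1 downstream start: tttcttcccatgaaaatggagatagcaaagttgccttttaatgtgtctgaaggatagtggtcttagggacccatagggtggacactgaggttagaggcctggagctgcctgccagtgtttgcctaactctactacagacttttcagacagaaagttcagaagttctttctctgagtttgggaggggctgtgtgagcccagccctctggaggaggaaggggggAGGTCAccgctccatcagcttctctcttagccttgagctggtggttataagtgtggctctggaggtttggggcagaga
AGGTCA, searched on both strands (TGACCT on the other), stood once in the downstream window, with its first base at position -28 from the listed start, and not in the upstream window. It occurs in 16.3% of 32851 such windows of all genes. TGACGTCA, the palindromic cAMP response element, was in neither window and is in 1.79% of all windows. A match is a description of these letters and not a bound site, and the arrays do not say which start was used.

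The remaining members of the cholesterol-to-pregnenolone step did not share the size of the Cyp11a1 difference. Fdx1, the ferredoxin that hands electrons to Cyp11a1, was bright in both genotypes, with 2781 and 2649 on the KO arrays against 2978 and 3263 on the WT arrays. Both KO arrays were lower, by -0.20 ± 0.11, which is within the middle range of all probe sets. Star, the carrier that brings cholesterol to the inner mitochondrial membrane of steroid-making cells, was dim throughout. Its brightest probe set (1418729_at) read 146 and 170.5 on the KO arrays against 213 and 143 on the WT arrays, which overlapped, and the sign of its difference of -0.14 ± 0.27 turned to 0.12 without WT array 1. A dimmer one (1418728_at) read 55.8 and 62.7 on the KO arrays against 92.2 and 90.0 on the WT arrays. The dimmest (1449201_at), below the filter, read 2.52 and 4.38 on the KO arrays against 26.1 and 19.7 on the WT arrays. None of the 3 probe sets of Star was thus higher on both KO arrays. Tspo, an outer mitochondrial membrane protein that binds cholesterol and was long placed in its import, was bright and somewhat higher in KO cells on all 3 of its probe sets. Probe set 1416695_at read 10369 and 11397 on the KO arrays against 8031 and 8136 on the WT arrays, a difference of 0.43 ± 0.09. The other 2, whose probes may also bind other transcripts, gave 0.58 ± 0.12 and 0.81 ± 0.13. All 3 had non-overlapping groups, with folds from 1.34 to 1.75.

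**Figure D2:**
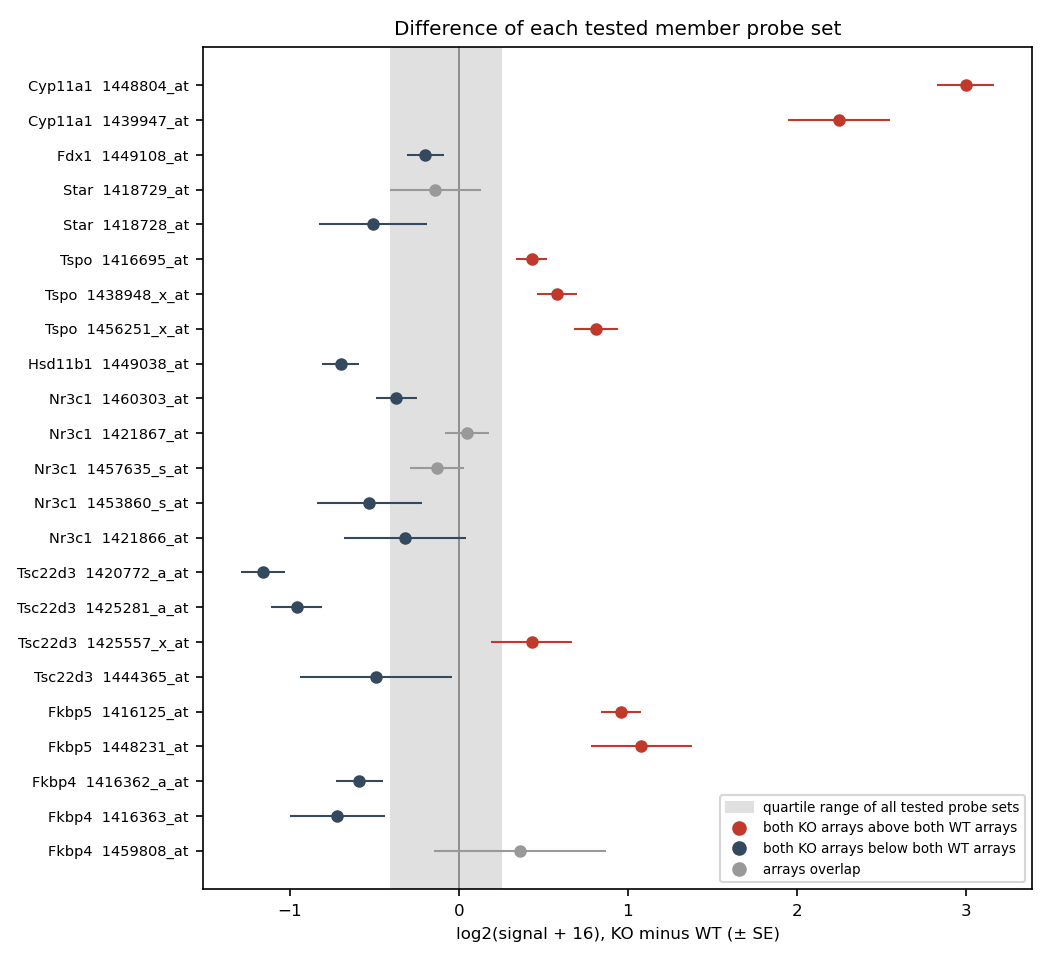
Difference of log2(signal + 16), KO minus WT, with the standard error of the limma fit, for the 23 tested probe sets of members, coloured by whether the arrays of the genotypes overlap, with the grey band running from the lower to the upper quartile of all 27022 tested probe sets (-0.40 to 0.25). The 2 Cyp11a1 points at 3.00 and 2.25 stand apart on the right, Fkbp5 follows near 1, and 2 Tsc22d3 points lie farthest left at -1.16 and -0.96.

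Hsd11b1, which turns inactive 11-keto glucocorticoid into the active hormone inside the cell, was lower in KO cells. It read 1843 and 1877 on the KO arrays, against 3216 and 2846 on the WT arrays. The genotypes did not overlap, and the difference was -0.70 ± 0.11, a 1.62-fold lower level in KO cells on the log2(signal + 16) scale. Nr3c1, the glucocorticoid receptor gene, had differences from -0.53 to 0.05 on its 5 tested probe sets. Its brightest probe set (1460303_at) read 1278 and 1175 on the KO arrays against 1531 and 1648 on the WT arrays, a difference of -0.37 ± 0.12. Probe set 1421867_at read 1075 and 1154 on the KO arrays against 1046 and 1105 on the WT arrays, and its arrays overlapped at 0.05 ± 0.13. A probe set shared between transcripts (1457635_s_at) overlapped as well, with 623 and 749 on the KO arrays against 708 and 789 on the WT arrays. The 2 dimmer ones tested gave -0.53 ± 0.31 and -0.32 ± 0.36, and the dimmest, 1431378_at, was below the filter with 9.05 and 47.0 on the KO arrays against 31.6 and 56.8 on the WT arrays.

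Tsc22d3 and Fkbp5, both induced by glucocorticoids in many cell types, differed in opposite directions. Tsc22d3, also called Gilz, a leucine zipper protein that mediates part of the anti-inflammatory action of glucocorticoids in T cells, was lower in KO cells on its 2 brightest probe sets. Probe set 1420772_a_at read 2154 and 2598 on the KO arrays, against 4963 and 5636 on the WT arrays, a difference of -1.16 ± 0.13. Probe set 1425281_a_at read 778 and 978 on the KO arrays, against 1648 and 1770.5 on the WT arrays, a difference of -0.96 ± 0.15. On both, each KO array was below each WT array. Another probe set, 1425557_x_at, went the other way, with 279 and 440.2 on the KO arrays against 246 and 269 on the WT arrays (0.43 ± 0.24), and it is of the kind whose probes may bind other transcripts. Its difference was 0.11 without KO array 2. The dimmest, 1444365_at, read 19.1 and 37.8 on the KO arrays against 40.5 and 49.6 on the WT arrays.

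Fkbp5 encodes an Hsp90 co-chaperone that lowers the hormone affinity of the receptor and is itself a glucocorticoid target. It was higher in KO cells, with 3028 and 2726 on the KO arrays against 1516 and 1423 on the WT arrays at probe set 1416125_at, a difference of 0.96 ± 0.12. Probe set 1448231_at pointed the same way, with 251 and 158 on the KO arrays against 96.5 and 76.0 on the WT arrays (1.08 ± 0.30). The genotypes overlapped on neither, and the difference at 1448231_at lay between 0.78 and 1.39 under the alternatives tried. Its dimmest, 1447736_at, was below the filter and overlapped, with 19.2 and 2.89 on the KO arrays against 20.3 and 14.8 on the WT arrays. Fkbp4, the related co-chaperone that links the receptor to dynein and favours its activity, was lower in KO cells. It read 684 and 769 on the KO arrays against 1095 and 1106 on the WT arrays at probe set 1416362_a_at, a difference of -0.59 ± 0.14, and 73.6 and 85.4 on the KO arrays against 129 and 155 on the WT arrays at 1416363_at (-0.72 ± 0.28). The groups did not overlap on these. The dim probe set 1459808_at varied as much within as between genotypes, with 27.9 and 60.4 on the KO arrays against 46.4 and 16.6 on the WT arrays.

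The start windows of Tsc22d3 and Fkbp5 are shown because these 2 glucocorticoid targets differed in opposite directions (GRCm38.p6, both on the minus strand, read 5′ to 3′ along the gene). The Tsc22d3 window is the most upstream of 3 listed, chrX:140600473-140600772, and the Fkbp5 window is chr17:28486100-28486399. Capitals mark TGTTCT, a half-site of the glucocorticoid response element.
Tsc22d3 most upstream start: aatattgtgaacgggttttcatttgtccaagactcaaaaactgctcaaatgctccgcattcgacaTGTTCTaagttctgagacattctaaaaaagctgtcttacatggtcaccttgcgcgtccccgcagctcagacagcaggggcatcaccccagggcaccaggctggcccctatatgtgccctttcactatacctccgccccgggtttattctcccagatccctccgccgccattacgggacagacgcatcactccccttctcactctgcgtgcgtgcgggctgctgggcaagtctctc
Fkbp5 start: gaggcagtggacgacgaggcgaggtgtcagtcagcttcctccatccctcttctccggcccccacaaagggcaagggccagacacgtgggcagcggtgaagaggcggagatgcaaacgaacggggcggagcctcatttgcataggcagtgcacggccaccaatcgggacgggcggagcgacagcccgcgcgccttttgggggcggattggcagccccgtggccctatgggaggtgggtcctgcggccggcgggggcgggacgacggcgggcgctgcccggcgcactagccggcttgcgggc
TGTTCT was searched on both strands (AGAACA on the other). It stood once in this Tsc22d3 window, at position -185, and in no other of the 10 windows searched, which cover only 7 members. Of all windows, 19% hold it. The full palindrome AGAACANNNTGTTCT was in none of the 10 and in 3 of all 32851 windows. For Tsc22d3 and Fkbp5, no match in 300 bases says only that the letters are not in this window.

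The other genes of the pathway came from 7 lists of 122 genes, 105 of them with a probe set of their own and 86 bright enough to test, each by its brightest probe set. These lists were written with earlier results of these data known. In the limma fit, adjusted by Benjamini-Hochberg over the whole array, 19 rose and 17 fell in KO cells, where 20.3% of all 12547 genes passed (10.5% higher, 9.87% lower). Of the 36 called genes 23 had more than 1 tested probe set, and 0 had calls in opposite directions. Not every tested probe set of these genes passed. Glul passed on 1 of 2, Ncoa2 on 1 of 3 and Creb1 on 2 of 5, while Vdac1 passed on all 4 and Il7r on both. Among genes that did not pass by their brightest probe set, Npc2 was called lower on 1 of 4 and Nfkbia on 1 of 5. Median differences of lists below are on the log2(signal + 16) scale, beside -0.026 for all genes. The plot of the pathway lists shows each gene.

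**Figure D3:**
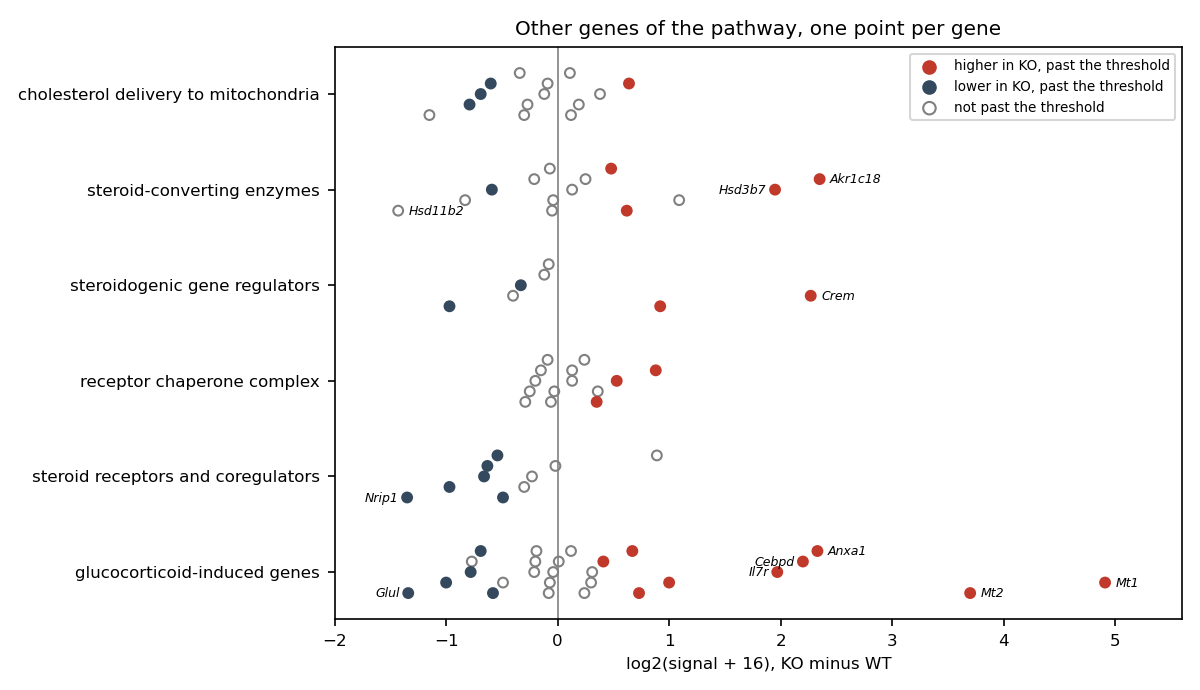
Difference of log2(signal + 16), KO minus WT, for each tested gene of 6 pathway lists, 1 point per gene, filled red (higher in KO) or dark blue (lower in KO) where the adjusted p was under 0.05 and open otherwise. All 6 filled points of the steroid receptors and coregulators lie left of 0, while the glucocorticoid-induced genes lie on both sides, with Mt1 at 4.91 and Mt2 at 3.70 on the right and Glul at -1.34 on the left.

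Among enzymes that convert steroids after the first step, Akr1c18 and Hsd3b7 stood out. Akr1c18, the 20-alpha-hydroxysteroid dehydrogenase that inactivates progesterone, read 3521 and 4916 on the KO arrays, against 837 and 775 on the WT arrays, and rose 5.08-fold (log2 difference 2.35 ± 0.16, adjusted p = 6.54e-05). Hsd3b7, a 3-beta-hydroxysteroid dehydrogenase of bile acid synthesis, read 649 and 803 on the KO arrays, against 162 and 189.7 on the WT arrays, and rose 3.86-fold (adjusted p = 0.000402). Hsd17b10, a mitochondrial dehydrogenase of fatty acid and steroid substrates, rose (0.48 ± 0.11), and so did H6pd (0.62 ± 0.17), which makes the NADPH that Hsd11b1 uses. Hsd17b4, a peroxisomal enzyme of fatty acid oxidation, fell (-0.59 ± 0.12). In this list 4 of 14 tested genes rose, 1 fell and 9 did not pass, with a median of 0.05. Several of these enzymes act mainly on substrates other than hormones. Of the enzymes that convert pregnenolone and its products in steroid-making glands, Hsd3b1, Cyp17a1 and Cyp11b1 were among those below the filter. Cyp21a1 was above the array median on both KO arrays and on WT array 2. It read 104 and 151 on the KO arrays against 33.2 and 74.2 on the WT arrays, and did not pass in limma (adjusted p = 0.0953). The calls of Hsd17b10, H6pd and Hsd17b4 were lost without WT array 2, where Cyp21a1 passed, that of H6pd also without KO array 1 or the filter and that of Hsd17b10 also without KO array 2 or WT array 1, and without the intensity trend only Akr1c18 and Hsd3b7 were called.

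Genes of cholesterol transport moved in both directions. Stard4, a cytosolic sterol carrier, fell (-0.69 ± 0.13, adjusted p = 0.00811), as did Npc1 (-0.60 ± 0.13), which exports cholesterol from lysosomes, and Tspoap1 (-0.79 ± 0.17), a protein that binds Tspo. Vdac1, the outer membrane channel found with Tspo, rose on all 4 of its probe sets (0.64 ± 0.09 at the brightest, adjusted p = 0.00273). In all 1 of 14 tested genes rose, 3 fell and 10 did not pass, with a median of -0.19. Without WT array 1 the calls of Npc1 and Tspoap1 were lost, that of Tspoap1 also without KO array 1 or WT array 2, and without the intensity trend 0 of the 14 passed in limma (4 at an unadjusted p under 0.05). Cyp27a1, Cyp27b1 and Cyp24a1, the other mitochondrial enzymes served by Fdx1 in bile acid and vitamin D metabolism, were all below the filter.

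Of 7 tested regulators of steroid-making genes, 2 rose, 2 fell and 3 did not pass, with a median of -0.12. Crem, which encodes activators and repressors of the cAMP response, read 4055 and 6062 on the KO arrays against 864 and 1189 on the WT arrays and rose 4.83-fold (2.27 ± 0.21, adjusted p = 0.000257). Creb1, its relative, fell (-0.97 ± 0.14, adjusted p = 0.00215). Cebpb, a leucine zipper factor, rose (0.92 ± 0.11), and Sp1, a general factor, fell (-0.33 ± 0.10, adjusted p = 0.0494). Nr5a1, the master regulator of adrenal and gonadal steroid genes, was below the filter, with 15.9 and 16.8 on the KO arrays against 34.3 and 33.4 on the WT arrays. Nr5a2, Nr0b1 and Nr0b2 were below it too. The call of Sp1 was lost when any single array was left out, with a pseudocount of 1, without the filter and with median centring, and without the intensity trend only Crem remained called.

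Most chaperones of the receptor complex did not pass the threshold. Of 14 tested, 3 rose, 0 fell and 11 did not pass in limma (1 was lower at an unadjusted p under 0.05), with a median of 0.05. Fkbp8, an FK506-binding protein of the mitochondrial surface, rose (0.88 ± 0.17, adjusted p = 0.0107), as did Cdc37 (0.53 ± 0.13), a co-chaperone for kinases, and St13 (0.35 ± 0.10, adjusted p = 0.0461), an Hsp70 partner. Without WT array 2 or without the filter Fkbp8 alone kept its call, that of Cdc37 was lost without KO array 1 and that of St13 without KO array 2 or WT array 1 and with quantile normalization or median centring, and without the intensity trend 0 of the 14 passed in limma (2 at an unadjusted p under 0.05). Several coregulators of steroid receptors fell in KO cells. Of 10 tested genes 6 fell, 0 rose and 4 did not pass in limma (1 was higher at an unadjusted p under 0.05), with a median of -0.52. Nrip1, a corepressor that binds liganded receptors, read 1355 and 1437 on the KO arrays, against 3600.2 and 3576 on the WT arrays, and fell (-1.35 ± 0.11, adjusted p = 0.00013). The p160 coactivator genes fell as well, with Ncoa3 at -0.97 ± 0.12, Ncoa2 at -0.66 ± 0.13 and Ncoa1 at -0.54 ± 0.13. The acetyltransferase gene Crebbp (-0.63 ± 0.12) and the deacetylase gene Hdac2 (-0.49 ± 0.12) completed this set. Without WT array 2 the calls of Ncoa1, Ncoa2 and Hdac2 were lost, those of Ncoa1 and Hdac2 also without WT array 1, that of Ncoa1 without KO array 2 and that of Hdac2 without KO array 1, and without the intensity trend only Nrip1 was called.

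Genes that glucocorticoids induce did not move one way. Of 27 tested, 9 rose, 5 fell and 13 did not pass, with a median of 0.01. The metallothionein genes led the rises. Mt1 read 5444 and 3391 on the KO arrays, against 83.5 and 192 on the WT arrays (4.91 ± 0.34, adjusted p = 6.24e-05), and Mt2 read 2244 and 1232 on the KO arrays, against 126 and 101 on the WT arrays (3.70 ± 0.27). Metallothioneins bind zinc and are also induced by metals. Il7r, the interleukin-7 receptor gene, rose 3.91-fold, and Cxcr4, a chemokine receptor gene, rose 1.99-fold. The remaining risen genes were Anxa1 (2.33 ± 0.34), Cebpd (2.20 ± 0.37), Socs1 (0.73 ± 0.13), Errfi1 (0.67 ± 0.13) and Ddit4 (0.41 ± 0.09). Cebpd was dim on the WT arrays, at 27.8 and 14.2, and the call of Ddit4 was lost without the filter. Among the falls, Glul, glutamine synthetase, read 1462 and 1575 on the KO arrays, against 3427 and 4339 on the WT arrays (-1.34 ± 0.14, adjusted p = 0.000427). Pik3ip1, an inhibitor of PI3 kinase, fell 2.01-fold. Bcl2l11, the pro-apoptotic Bim gene (-0.69 ± 0.11), Txnip, a thioredoxin inhibitor (-0.58 ± 0.09), and Bcl6, a transcriptional repressor (-0.78 ± 0.19), fell as well, the call of Bcl6 being lost without KO array 1, WT array 2 or the filter. Of the 13 that did not pass, 5 were chosen for naming after their values were seen. The clock gene Per1 was at -0.07 ± 0.14, the phosphatase gene Dusp1 at 0.01 ± 0.11, Klf9 at -0.04 ± 0.13 and the kinase gene Sgk1 at 0.24 ± 0.12. Zbtb16 was dim, with 24.6 and 44.6 on the KO arrays against 50.1 and 34.0 on the WT arrays. Without the intensity trend 5 of the 27 passed, 4 higher and 1 lower.

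Markers of several other cell types were higher in KO cells, as Cyp11a1 was, but not those of every type listed. Of 14 mast cell or basophil markers, all tested, 11 rose, and their summed signal was 48716 and 33794 on the KO arrays against 1086 and 1650.4 on the WT arrays. Both tested eosinophil markers of 5 measured rose, with sums of 5585 and 2099 on the KO arrays against 30.7 and 92.0 on the WT arrays, while Ccr3 was near the bottom of the array at 2.69 and 2.47 on the KO arrays against 4.04 and 13.7 on the WT arrays. The filter took the mean over all 4 arrays, so markers near the floor on the WT arrays passed only through their KO signals. On the WT arrays Prg2 read 1.16 and 9.03, Epx 16.3 and 36.8, and the mast cell marker Cpa3 22.3 and 21.4. A rise of such markers was favoured in advance, so nothing is read from counts of them. Of all genes tested 10.5% rose in limma. Of 4 tested T helper 2 markers 3 rose (Il4, Il5 and Il13), Gata3 did not pass (-0.36 ± 0.13), and the sums were 3335 and 2401 on the KO arrays against 2148 and 2736 on the WT arrays. Of 8 tested myeloid markers 5 rose, both CD8 T cell markers rose, and 2 of 3 tested NK cell markers rose, while 0 of 5 tested B cell markers passed in limma (1 higher and 1 lower at an unadjusted p under 0.05). Each marker was counted by its brightest probe set. Of markers that did not pass, Csf1r was called higher on 2 of 3 tested probe sets, and Eomes and Tpsb2 each on 1 of 2. Summed signals of myeloid markers were 3278 and 2147 on the KO arrays against 456 and 632 on the WT arrays. Those of CD8 T cell markers were 2653 and 2196 on the KO arrays against 881 and 924 on the WT arrays. NK cell markers summed to 4801 and 3461 on the KO arrays against 1392 and 1414 on the WT arrays, and B cell markers to 1319 and 842 on the KO arrays against 598 and 1391 on the WT arrays. No listed signal was exactly 0. The signal of KO array 1 over that of KO array 2 was 1.01 and 1.11 on the tested Cyp11a1 probe sets. For the sums it was 1.44 for mast cell or basophil, 2.66 for eosinophil and 1.53 for myeloid markers. It was 1.39 for T helper 2, 1.21 for CD8 T cell, 1.39 for NK cell and 1.57 for B cell markers. Much of the T helper 2 sum was Gata3, with 1682 and 1693 on the KO arrays against 1967 and 2389 on the WT arrays. The cytokine genes of that list differed more between KO arrays 1 and 2, with Il4 at 480.5 and 190.4, Il5 at 343 and 211, and Il13 at 829.6 and 307. The part of these cell types in the Cyp11a1 signal was not tested. Of 8 measured markers of steroid-making gland cells 6 were below the filter, and Cyp21a1 made up most of the KO sums. The sums were 180.5 and 233 on the KO arrays against 182 and 257 on the WT arrays.

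The genes with the profile nearest to Cyp11a1 over the 4 arrays were found by the Euclidean distance between log2(signal + 16) profiles, each centred on its own mean, over 1 probe set per gene. In order they were Gja1 (distance 0.063), the gap junction protein connexin 43, Smim3 (0.102), Ctla2b (0.205), a relative of cathepsin propeptides, AA467197 (0.218) and Lhx6 (0.255), a LIM homeobox factor. Gja1 read 789 and 810.4 on the KO arrays against 69.5 and 102 on the WT arrays, from a probe set whose probes may also bind other transcripts. Smim3 read 4149 and 4291 on the KO arrays against 413 and 593 on the WT arrays. The measure picks genes whose KO signals were nearly equal and whose WT signals were about as far below them as those of Cyp11a1, and with 4 arrays it separates little else.

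**Figure D4:**
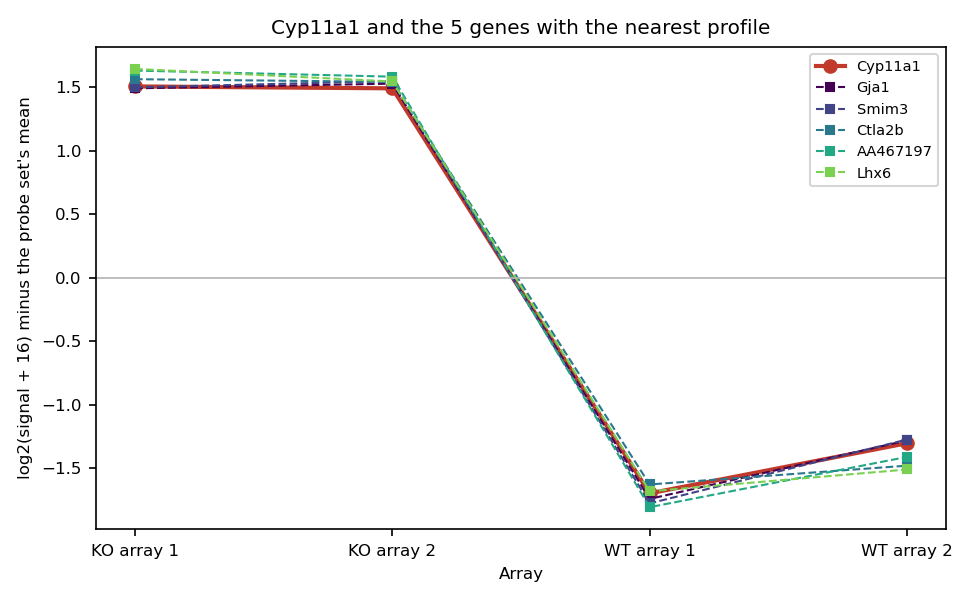
log2(signal + 16) minus the mean of each probe set over the 4 arrays, for Cyp11a1 (red circles) and the 5 genes with the smallest distance to it (squares), 1 line per gene and 1 position per array. All 6 lines are nearly level between the KO arrays and drop to the WT arrays, and on KO array 2 Cyp11a1, at 1.49, lies just below the other 5, which are at 1.53 to 1.58.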

How the data were processed

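RNA of 4 samples was measured on single-colour Affymetrix arrays, with biotin-labelled cRNA made from 6 micrograms of total RNA, per the labels' protocols. The deposited table holds a linear intensity per probe set and array. Per the submitters' processing notes MAS5 made them, and its version and parameters were not given in the sources used here. The mean after trimming 2% of probe sets at each end was equal on all arrays, so differences in total RNA per cell are removed, and dim MAS5 signals vary strongly.

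Of 45101 probe sets, 34958 name 1 gene in the platform annotation, 932 several and 9211 none. RefSeq identifiers were found for 34754 and changed 0 symbols. After 64 control probe sets and the 40% with the lowest mean log2 were left out, KO was compared with WT on log2(signal + 16) by limma 3.58.1 under R 4.3.3 (lmFit, then eBayes with trend), two-sided, at a Benjamini-Hochberg adjusted p of 0.05 over 27022 probe sets. Residual degrees of freedom were 2 and prior ones 6.41. The smallest two-sided p of an exact permutation test would be 0.333 with 2 arrays a group. The fit was tested on simulated data drawn from its own variance model with independent arrays. That test cannot tell whether the intensity trend is right or whether cultures were separate.

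Members and lists were chosen with earlier results of these data known. Named were all members, all called genes of a list with up to 6 of them, otherwise the 4 with the smallest p in each direction and the rest of any count up to 5, and the 5 genes nearest to Cyp11a1. Among glucocorticoid-induced genes all that rose were named. Alternatives were pseudocounts of 1 and 64, no filter or 60%, quantile normalization, median centring, array number as a block, no intensity trend, no _x_at probe sets, and leaving out each array. Promoter windows came from RefSeq (GRCm38.p6). The scanner files were not used here.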

Additional observations from a re-analysis of the deposited data

How the results depend on the processing

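The 2 tested probe sets of Cyp11a1, the 2 brightest of Tsc22d3, the 3 of Tspo, both tested ones of Fkbp5, the brightest of Fkbp4 and that of Hsd11b1 kept their direction under each alternative that tested them. Their groups did not overlap, so leaving out an array could not turn the direction, and nothing is read from this. The sign was not kept at Star 1418729_at, Nr3c1 1421867_at and 1457635_s_at, and Fkbp4 1459808_at. The intensity trend mattered most. Without it 1183 probe sets were called in place of 4608, and the called genes numbered 0 in cholesterol delivery, 2 among steroid-converting enzymes, 1 among steroidogenic regulators, 0 in the chaperone complex, 1 among coregulators and 5 among glucocorticoid-induced genes, with 1 member probe set (Cyp11a1). The cause was not tested. At an unadjusted p under 0.05 that fit held 4 genes in cholesterol delivery and 2 in the chaperone complex. Without a filter 1 chaperone gene was called, more probe sets then sharing the adjustment.

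Leaving out 1 array at a time gave 2786 to 4387 called probe sets (3032 without WT array 1 and 2786 without WT array 2), 2 to 6 genes in cholesterol delivery (2 without WT array 1), 3 to 5 among steroid-converting enzymes, 1 to 3 in the chaperone complex and 3 to 5 among coregulators (3, 1 and 3 without WT array 2). With fewer arrays the fit has 1 residual degree of freedom fewer, and a lone array is assumed to vary like the others. The array numbers are not stated to mark a shared animal or batch, and deviations of same-numbered KO and WT arrays correlated at 0.01. With the number as a replicate block 5382 probe sets were called, the count of member probe sets was 11 as without it, and no count moved by over 1.5 times, though the call of Sp1 was lost and Cyp21a1, Esr1 and Dbi passed. Dim signals limit what can be compared, since the 16 added shrinks their differences.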
